A study of Mus musculus with 12 samples.

Results

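RNA levels were compared between DIF and TB cells of 4599, a mouse melanoma line, in 3 libraries of each group out of 12 in the series. Every gene with a mean of at least 0.5 FPKM (fragments per kilobase of gene length and per sequencing depth) over the 12 libraries was taken, which kept 12661 of 56748 genes. TB and DIF name parts of orthotopic melanomas, tumours grown in the tissue of origin, and the abbreviations are not spelled out in the sources used here. The other libraries came from a further tumour part named PIF and from lung metastases named Met, with 3 libraries each. Before RNA was taken, cells of all 4 groups spent 24 h in 10% serum and a further 24 h in 1% serum on a gel of fibrillar collagen from cow skin (1.7 mg/ml), so no group was taken straight from tissue and none was grown without collagen. The sources used here do not say if libraries within a group stem from separate tumours or cultures, and the p-values therefore measure only the spread between these libraries. The study's title concerns a memory of matrix topography, and the comparison asks which RNAs differed by tumour part among cells on a shared substrate. Whether such differences were present before culture was not tested.

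Reads rebuilt from FPKM and gene length summed to 16.3 to 18.2 M reads per DIF library and 17.5 to 18.0 M per TB library. Ribosomal RNA took 1.11 to 1.23% of reads in DIF and 1.32 to 1.59% in TB. The labelled cell type was checked on marker levels. Sox10, a transcription factor of neural crest and melanocytes, was at 203 to 239 FPKM in DIF and 206 to 261 in TB, and S100b, a glial and melanocytic calcium-binding protein, at 70.6 to 86.3 and 72.2 to 88.5. The pigment enzyme Tyr was at 0 in all 3 DIF libraries and at most 0.0325 FPKM in TB, Dct was at most 0.059 FPKM in the 6 libraries, and Tyrp1 was at 0 in all 6, so the RNA for pigment synthesis was absent or near absent in both groups. The 17 listed melanocyte and melanoma markers together summed to 405 to 453 FPKM in TB and to 295 to 344 in DIF, without overlap. Most of each sum was Sox10 and S100b, whose groups overlapped. The gap rested on Gpnmb, at 90.1 to 97.0 FPKM in TB and 6.77 to 8.79 in DIF, without which the sums overlapped. Mc1r, the melanocortin receptor, was at 0.695 to 0.781 FPKM in TB and 0.0748 to 0.272 in DIF. The leukocyte marker Itgam was at 0 in the 6 libraries and Ptprc at most 0.019 FPKM. All 11 leukocyte markers summed to 1.63 to 2.42 FPKM in TB and 0.906 to 1.38 in DIF, without overlap, most of it Cd68 and Lyz2. The endothelial marker Pecam1 was at most 0.01, and Vwf was at 0.158 to 0.347 in TB and 0.056 to 0.0992 in DIF. Among 11 fibroblast markers 10 averaged under 0.5 FPKM in the 6 libraries. Their summed level was 11.1 to 16.2 FPKM in DIF and 10.7 to 11.4 in TB, nearly all of it Col3a1. Of the low ones Col1a1 was at 0.251 to 0.887 FPKM in DIF and at most 0.147 in TB, Pdgfrb at 0.221 to 0.844 and at most 0.164, and Fap at 0.0776 to 0.201 and at most 0.0408, so all 3 DIF libraries lay above TB for each. In such bulk RNA, fewer cells carrying a transcript and less of it per cell cannot be told apart.

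As background, cultured melanoma cells lay down and remodel extracellular matrix, and read it through integrins, discoidin receptors and the actin cytoskeleton. Dedifferentiated melanoma cells lose pigment genes and the factor MITF and keep or gain mesenchymal and neural crest genes. Lysosomes, which take up and digest matrix and membrane proteins, are under the control of the MITF and TFE family of factors, which bind the E-box letters CACGTG, while serum response factor binds the CArG box in promoters of muscle and cytoskeletal genes.

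Levels are FPKM. A change is the difference in mean log2(FPKM + 1), DIF minus TB, with its standard error (SE) from limma, and a call means an adjusted p (Benjamini-Hochberg over all tested genes) under 0.05. Of 12661 genes 1091 were called, which is 8.62%. Of these 539 were higher in DIF, 4.26% of the tested genes, and 552 lower, 4.36%. Most changes were small, since 750 of the calls, 68.7%, were under 1.5-fold, while 82 rose and 54 fell by 2-fold or more. The count depended on single libraries and was 589 without DIF replicate 2, 611 without TB replicate 2 and 606 without TB replicate 3, and no called gene changed sign in any setting run. Counts per gene list below carry the same dependence, and it is stated where a count moved by over 1.5 times. Each count is to be read against the 4.26% higher and 4.36% lower of all tested genes. List medians are to be read against the median log2 change of all tested genes, -0.0013.

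**Figure D1:**
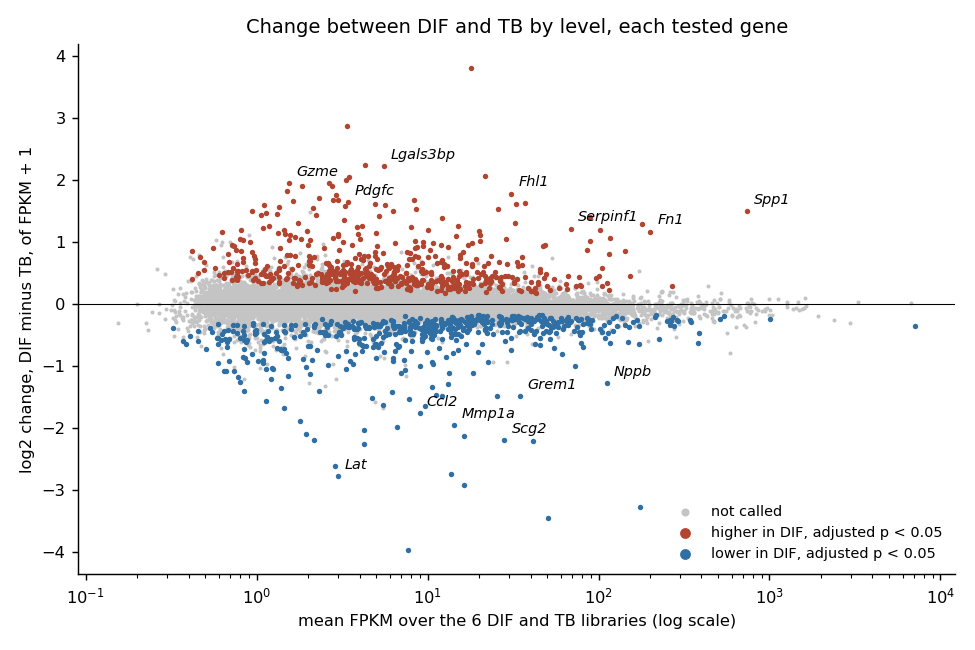
Each point is a tested gene with a mean of at least 0.1 FPKM in the 6 libraries, placed by that mean (log scale) and by its log2 change of FPKM + 1 between DIF and TB. Red points are the 539 genes called higher and blue points the 552 called lower, except any under 0.1 FPKM, and the named genes are described in the text.

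The sequences shown here are promoter windows of 5 genes, chosen after a motif search because they hold the motif marked in them, from RefSeq on GRCm38.p6, each 300 bases long and reading 5′ to 3′ on the gene's strand from 250 bases before the start to 50 after it. In the lysosomal genes Gla (chrX:134600956-134601255, minus strand), Ctsl (chr13:64370471-64370770, minus) and Ctsd (chr7:142387778-142388077, minus), which were called lower in DIF, capitals mark CACGTG, the same letters on both strands. In Fhl1 (chrX:56779433-56779732, plus) and Pdgfc (chr3:81036166-81036465, plus), which were higher in DIF, capitals mark a CArG box, searched on both strands as CC, then 6 letters A or T, then GG.
Gla: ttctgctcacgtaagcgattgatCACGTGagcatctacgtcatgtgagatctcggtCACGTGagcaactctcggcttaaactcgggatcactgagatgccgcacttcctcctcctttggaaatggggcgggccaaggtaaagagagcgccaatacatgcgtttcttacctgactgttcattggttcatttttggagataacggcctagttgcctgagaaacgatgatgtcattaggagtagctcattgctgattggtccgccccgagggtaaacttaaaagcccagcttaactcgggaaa
Ctsl: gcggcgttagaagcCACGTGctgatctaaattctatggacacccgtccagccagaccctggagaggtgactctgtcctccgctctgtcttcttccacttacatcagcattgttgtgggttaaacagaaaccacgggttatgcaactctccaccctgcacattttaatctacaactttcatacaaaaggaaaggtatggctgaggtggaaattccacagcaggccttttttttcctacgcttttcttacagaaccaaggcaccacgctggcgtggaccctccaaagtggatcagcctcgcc
Ctsd: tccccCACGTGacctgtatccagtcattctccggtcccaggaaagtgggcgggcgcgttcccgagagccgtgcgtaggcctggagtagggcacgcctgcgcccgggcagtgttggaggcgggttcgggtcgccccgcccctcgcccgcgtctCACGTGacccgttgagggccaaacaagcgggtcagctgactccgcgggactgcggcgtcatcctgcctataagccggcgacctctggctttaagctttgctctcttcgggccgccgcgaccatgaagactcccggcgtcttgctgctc
Fhl1: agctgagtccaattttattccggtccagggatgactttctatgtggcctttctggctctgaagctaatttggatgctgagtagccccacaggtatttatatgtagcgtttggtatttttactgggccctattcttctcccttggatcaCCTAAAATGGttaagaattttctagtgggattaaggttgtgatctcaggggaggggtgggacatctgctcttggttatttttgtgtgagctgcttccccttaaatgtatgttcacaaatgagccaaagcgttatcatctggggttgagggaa
Pdgfc: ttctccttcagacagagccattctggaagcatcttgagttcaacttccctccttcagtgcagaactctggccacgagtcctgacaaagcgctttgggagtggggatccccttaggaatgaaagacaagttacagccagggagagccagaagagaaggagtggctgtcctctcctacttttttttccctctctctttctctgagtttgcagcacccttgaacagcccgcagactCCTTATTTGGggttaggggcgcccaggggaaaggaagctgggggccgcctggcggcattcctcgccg
Gla and Ctsd held 2 CACGTG sites each and the other windows 1 site each. CACGTG stood in 7.15% of all 32851 windows and the CArG box in 1.63%. Of the 11 lysosomal genes called lower that had a window, 6 did not hold CACGTG. These are matches of letters in a window and not measured binding.

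Lysosomal genes were more often lower than higher in DIF. Of 68 tested members of the lysosomal list 17 were called lower and 1 higher, against 4.36% and 4.26% of all tested genes, and the median log2 change was -0.12 against -0.0013 over all genes. Besides lysosomal proteins the list holds the factor Mitf, counted among the 17, and other regulators. All 3 DIF values lay below the 3 TB values for 31 of the 68, where the share over all tested genes was 15.1%, and above them for 3, where it was 14.1%. The 1 rise was not called without DIF replicate 2, without TB replicate 3 or with no filter on low values, and voom on the rebuilt reads called 2 rises. The count of lower members was 11 without TB replicate 2 and 9 after quantile normalization of the libraries. Ctsb, the cysteine protease cathepsin B, was at 266, 270 and 275 FPKM in TB and at 180, 179 and 186 in DIF, a log2 change of -0.57 ± 0.06 (SE) with an adjusted p of 0.00013. Ctsl, cathepsin L, went from 169, 187 and 187 FPKM to 114, 115 and 124 (log2 change -0.62, adjusted p 0.00022). Neither cathepsin's groups overlapped.

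Some enzymes that cut glycolipids and some parts of the proton pump fell too. Gla, alpha-galactosidase A, fell from 12.4 to 13.3 FPKM in TB to 7.47 to 9.24 in DIF. Hexa, a subunit of a hexosaminidase, fell from a mean of 295 FPKM to 232, by 0.34 on the log2 scale. The Hexa call was lost after quantile normalization, at an adjusted p of 0.064. Among subunits of the vacuolar ATPase, which acidifies lysosomes, Atp6v1b2 averaged 35.7 FPKM in TB and 27.4 in DIF and Atp6v1c1 18.6 and 13.5. Atp6v0d2, a subunit found in few cell types, averaged 1.68 FPKM in TB and was at 0, 0 and 0.0202 in DIF. The abundant membrane protein Lamp1 did not pass the test and averaged 284 FPKM in TB and 253 in DIF (adjusted p 0.063). Ctsd, cathepsin D, averaged 182 FPKM in TB and 152 in DIF (log2 change -0.26, adjusted p 0.01), and its call was lost after quantile normalization at 0.17 and without TB replicate 2 at 0.062. The called fall of Mitf, from 14.5 to 15.7 FPKM in TB to 3.40 to 5.58 in DIF, and that of the melanosomal glycoprotein Gpnmb were the largest of the list together with Atp6v0d2.

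Of the 17 members called lower 11 had a promoter window, and 5 of these held CACGTG, against 12 of 42 matched members that were not called and 8.09% of all 27025 genes with a window. Whether those shares differ was not tested, and a link between the falls of Mitf and of lysosomal genes was not tested. In the other groups Ctsb averaged 348 FPKM in PIF and 187 in Met. The log2 change of Ctsb from PIF to DIF was -0.93 (adjusted p 1.2e-06), and that from Met to DIF, -0.04, did not pass the test (adjusted p 0.8). Cd68, a lysosomal membrane protein and the sole one of 11 leukocyte markers with a mean over 0.5 FPKM across the 6 libraries, was at 1.10 to 1.70 FPKM in TB and 0.606 to 1.05 in DIF, without passing the test (adjusted p 0.18).

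**Figure D2:**
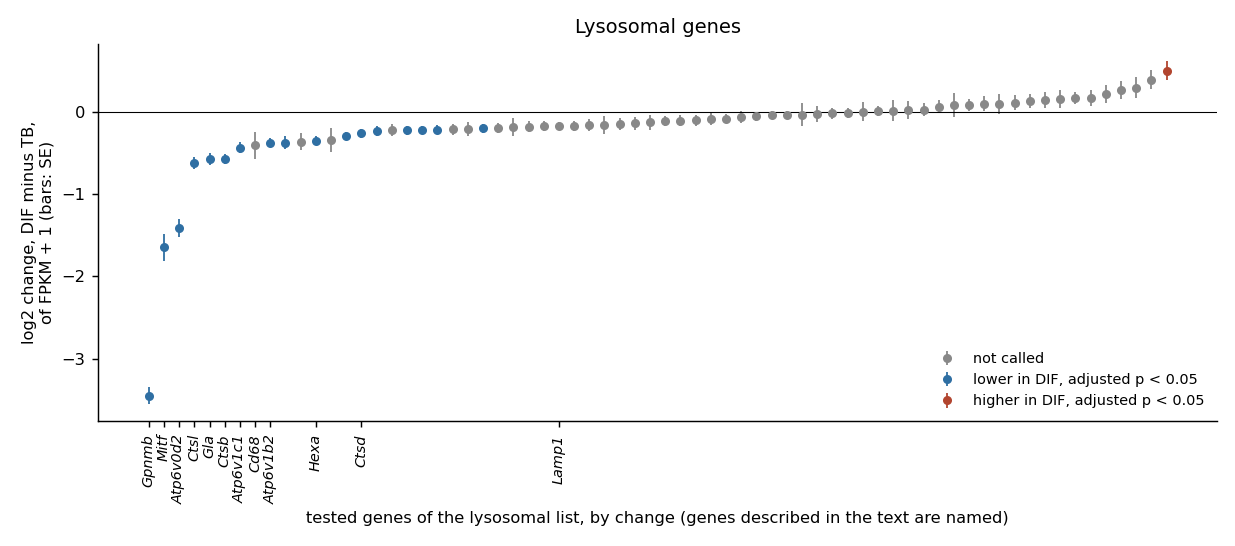
Each point is 1 of 68 tested members of the lysosomal list, which includes the factor Mitf, ordered by log2 change of FPKM + 1 between DIF and TB. The vertical axis is that change (bars are SE), with blue for 17 genes called lower, red for 1 called higher and grey for the rest. Gpnmb, Mitf and Atp6v0d2 lie far below the others, which run close to 0 with most of them under it.

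Several of the largest rises were of secreted or surface proteins that were low in TB. Lgals3bp, a secreted glycoprotein that binds galectin 3, was at 1.04, 1.81 and 1.14 FPKM in TB and at 10.3, 9.12 and 9.82 in DIF, a 7.34-fold rise in the mean and a log2 change of 2.22 ± 0.14 (SE) with an adjusted p of 2.4e-06. Its means were 2.41 FPKM in PIF and 2.06 in Met, and DIF was above both (adjusted p 9.3e-06 and 3.3e-05). Lgals9, galectin 9, rose from 2.79, 3.84 and 3.71 FPKM to 13.83, 13.47 and 11.96 and was also above PIF (3.38) and Met (5.37), with adjusted p of 4.9e-06 and 0.00063. Galectins cross-link sugars on cell surfaces and in the matrix. The list of 8 tested galectin genes held these 2 rises and 1 fall, that of Lgals3, and another fall was called without DIF replicate 3.

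Other rises set DIF apart from each of the 3 other groups. Gas1, a membrane protein that binds hedgehog ligands, was at 1.30, 0.781 and 1.42 FPKM in TB and 4.962, 6.505 and 4.844 in DIF. Means of 1.08 FPKM in PIF and 2.79 in Met lay under the DIF mean of 5.44 (adjusted p 6.2e-06 and 0.0081). Cd248, endosialin, a surface protein of stromal and mural cells, rose from 3.53 to 4.14 FPKM to 11.2 to 16.8 and was above PIF and Met (adjusted p 2.7e-06 and 0.01). Septin4, a filament-forming GTPase, rose from 0.324 to 0.776 FPKM to 2.65 to 5.13, and was above PIF at 0.333 and Met at 0.810 (adjusted p 6.5e-05 and 0.003). Twist1, a transcription factor of mesenchyme, rose from 1.28 to 1.53 FPKM to 3.21 to 3.81 and was above PIF at 1.04 and Met at 1.66 (adjusted p 0.00027 and 0.014). Fibroblast markers summed to 11.1 to 16.2 FPKM in DIF and 10.7 to 11.4 in TB. Of these Col1a1, Col1a2, Pdgfrb and Fap were above TB in all 3 DIF libraries, while Col3a1, Pdgfra and the other listed ones were not. The part of fibroblast markers in these rises was not tested. Gzme, a granzyme of cytotoxic and decidual cells, is given here against TB alone. It was at 0, 0.0631 and 0 FPKM in TB and at 2.95, 4.34 and 1.92 in DIF. Granzyme genes include close copies of each other, so the assignment of these reads is uncertain.

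Pdgfc, Fhl1, Mrc2 and Vasn rose as well. Pdgfc, a platelet-derived growth factor, was at 1.26, 1.16 and 0.993 FPKM in TB and 6.02, 6.23 and 4.82 in DIF, a 5-fold rise in the mean (adjusted p 1.3e-06). Met averaged 4.26 FPKM, and the difference from DIF did not pass the test (adjusted p 0.081). Fhl1, a LIM protein of muscle and of stress fibres, rose from 12.7, 13.08 and 13.99 FPKM to 38.4, 51.0 and 55.6. Mrc2, a collagen uptake receptor of mesenchymal cells, rose from 1.72 to 2.15 FPKM to 7.16 to 8.59, and Vasn, a surface protein that binds TGF-beta, from 14.8 to 16.4 FPKM to 41.0 to 57.8. Insyn1, a protein of inhibitory synapses, rose from 0.248 to 0.651 FPKM to 4.17 to 5.13. Meox1, a homeobox factor of somites and activated fibroblasts, was at most 0.156 FPKM in TB and at 2.52 to 3.15 in DIF, with a higher mean of 7.39 in Met (log2 change Met to DIF -1.09, adjusted p 0.00033). Spp1, osteopontin, a secreted integrin ligand, had the largest rise in FPKM, from 351, 382 and 411 to 871, 1111 and 1292. Vasn overlaps Dnaja3 on the same strand, whose level was 12.8 FPKM in TB and 13.7 in DIF.

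**Figure D3:**
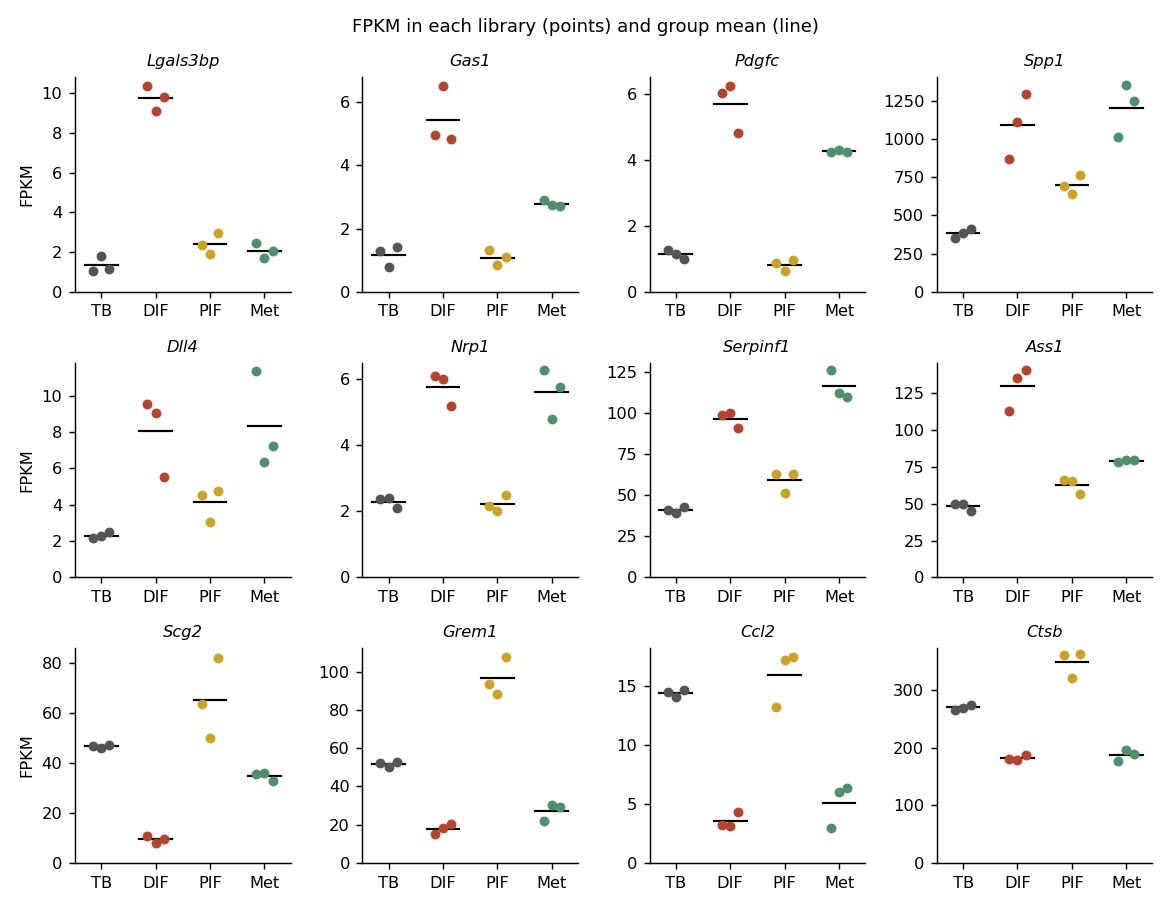
FPKM of 12 genes (vertical axes from 0) in the 3 libraries of TB, DIF, PIF and Met, with points for libraries and lines for group means. Lgals3bp, Gas1 and Ass1 are highest in DIF, and Scg2 and Grem1 are lowest in DIF. The differences of Pdgfc, Spp1, Dll4, Nrp1, Serpinf1, Ccl2 and Ctsb did not pass the test between DIF and Met.

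Lat, Scg2 and Syt4 fell severalfold, and Nppb and Cpe by less. Lat, an adaptor of T cell receptor signalling, was at 5.95, 5.37 and 6.54 FPKM in TB and at 0, 0.0197 and 0.0199 in DIF (log2 change -2.77 ± 0.10, adjusted p 2.4e-08). Leukocyte markers summed to 1.63 to 2.42 FPKM in TB and 0.906 to 1.38 in DIF, most of it Cd68 and Lyz2. Ptprc was at most 0.019 in these libraries, and the T cell marker Cd3e was at 0 in each of them. The part of leukocyte markers in the fall of Lat was not tested. Scg2, secretogranin 2, a precursor of neuropeptides in secretory granules, fell from 47.0, 46.0 and 47.0 FPKM to 10.6, 8.07 and 9.74, a 4.93-fold drop in the mean. Scg2 in DIF was also under Met at 34.7 FPKM (log2 change -1.78, adjusted p 3.4e-05) and under PIF at 65.2 (adjusted p 2.7e-07). Syt4, a synaptotagmin of secretory vesicles, fell from 23.1 to 25.5 FPKM to 2.54 to 3.22. Cpe, the carboxypeptidase that trims peptide hormones, fell from 455 to 479 FPKM to 293 to 306, and Nppb, the precursor of brain natriuretic peptide, from 147, 165 and 160 FPKM to 42.8, 73.2 and 83.9. None of Scg2, Syt4, Cpe and Nppb had overlapping groups.

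Rgs2, which switches off G protein signalling, fell from 7.66 to 7.76 FPKM to 0.675 to 0.926, and Eps8, an actin capping and EGF receptor substrate protein, from 7.13 to 7.63 FPKM to 0.83 to 1.33. Nox3, an NADPH oxidase known from the inner ear, was at 4.95 to 6.35 FPKM in TB and at most 0.152 in DIF. Dhrs3, a retinal reductase, fell from 9.88, 11.2 and 12.4 FPKM to 3.18, 1.65 and 1.60, while Cyp26b1, which degrades retinoic acid, rose from 0.787 to 1.33 FPKM to 2.90 to 3.42. Mmp1a, an interstitial collagenase, fell from 21.5 to 25.5 FPKM to 4.80 to 5.60. Prl2c2, a proliferin hormone, fell from 21.7, 28.5 and 29.0 FPKM to 1.93, 6.14 and 10.5. Proliferins are near-identical copies, and Mmp1a has a close copy too, so the split of their reads between copies is uncertain. Apoe, apolipoprotein E, fell from 18 to 19 FPKM to 5.12 to 6.48, while Met was lower still at 1.01 (log2 change Met to DIF 1.79, adjusted p 4.5e-06).

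Matrix genes rose more often than they fell, where 4.26% of all tested genes rose and 4.36% fell. Among 25 tested matricellular and adhesive glycoproteins 11 rose and 4 fell (median log2 change 0.18), and the 11 became 7 without DIF replicate 2. Thbs1, thrombospondin 1, rose from 0.636 to 0.805 FPKM to 2.04 to 3.30, and Matn2, a filament-forming matrilin, from 10.8 to 11.5 FPKM to 18.1 to 22.5. Ccn5 and Sparcl1, both matricellular proteins, rose from means of 0.237 and 2.31 FPKM to 3.01 and 9.0. Fn1, fibronectin, averaged 123 ± 7.81 FPKM in TB and 278 ± 44.7 in DIF (SD, n = 3, limma adjusted p 0.011), and the Fn1 call was lost without DIF replicate 2 (limma adjusted p 0.05). Ccn3 and Spon1, spondin 1, fell, from 25.2 to 25.8 and 9.28 to 10.5 FPKM to 15.5 to 16.5 and 3.48 to 5.04. Mfge8, a bridge between dying cells and integrins, fell from 92.0, 92.5 and 92.2 FPKM to 66.8, 67.4 and 66.1. Sparc, among the most abundant RNAs, averaged 1060 FPKM in TB and 929 in DIF and did not pass the test (adjusted p 0.11). The fibroblast markers Col1a1, Col1a2, Pdgfrb and Fap were above TB in all 3 DIF libraries too, while Col3a1, Pdgfra and the other listed ones were not. The part of fibroblast markers in the matrix rises was not tested.

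Of 21 basement membrane genes 6 rose and 2 fell (median log2 change 0.34), against 4.26% and 4.36% of all tested genes. Col18a1 and Col15a1, collagens that carry heparan or chondroitin sulphate at basement membranes, rose from 24.6 to 28.0 and 0.546 to 0.743 FPKM to 39.9 to 50.9 and 1.34 to 3.57. Npnt, nephronectin, an integrin ligand, fell from 12.29 to 13.04 FPKM to 5.54 to 8.21 and was also under Met at 14.3 (adjusted p 0.0028). Among 25 genes of elastic fibres and crosslinking 7 rose and 1 fell, and the 7 became 4 without DIF replicate 2. Fbln2, fibulin 2, rose from 5.16 to 5.95 FPKM to 10.4 to 17.1, and Eln, elastin itself, was the member that fell, from 4.67 to 5.66 FPKM to 1.77 to 2.37. Fbln2 was above Met and Eln below it (adjusted p 0.0026 and 0.0048). Of the enzymes that build heparan and chondroitin sulphate, Ext1 rose from 5.81 to 6.15 FPKM to 10.4 to 11.2, Chsy1 from 3.85 to 4.78 to 6.29 to 8.05 and Hs2st1 from 20.5 to 24.4 to 30.5 to 31.8. Ndst1, which sulphates heparan, averaged 17.8 FPKM in TB and 19.2 in DIF and did not pass the test (adjusted p 0.71). They belong to 29 tested proteoglycan genes, of which 5 rose and 1 fell, and the 5 became 8 without DIF replicate 3 or with the spread from the 6 libraries alone. The member that fell, Hyal1, degrades hyaluronan and overlaps Naa80 on the same strand, so reads cannot be divided between them with certainty.

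Among 19 genes of plasminogen activation, coagulation and serpins 3 rose and 3 fell, against 4.26% and 4.36% of all tested genes. The falls became 5 with voom on the rebuilt reads. Serpinf1, the anti-angiogenic serpin PEDF, rose from 40.8, 39.2 and 43.0 FPKM to 98.6, 99.9 and 90.7 (log2 change 1.21 ± 0.09, adjusted p 4.8e-06). F2r, the thrombin receptor PAR1, rose from 11.1 to 12.7 FPKM to 26.6 to 31.5, while F3, tissue factor, fell from 30.9 to 32.4 FPKM to 22.1 to 23.5. The membrane protein Mxra8 and the olfactomedin Olfml2b, both secreted or surface proteins of matrix-rich tissue, rose from means of 58.7 and 60.2 FPKM to 120 and 110.

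Ligands, receptors and targets of developmental pathways changed in both directions, where 4.26% of all tested genes rose and 4.36% fell. In the Notch list of 22 genes 6 rose and 1 fell (median log2 change 0.14), and the 6 became 3 among genes with a mean of at least 2 FPKM. Dll4, a Notch ligand best known from sprouting vessels, rose from 2.17, 2.25 and 2.48 FPKM to 9.54, 9.04 and 5.52, and Hey1, a Notch target, from 0.539, 0.425 and 0.619 FPKM to 7.35, 4.68 and 2.88. DIF replicate 3 was the lowest DIF library for both, and each DIF value still lay above all TB values. Lfng, a glycosyltransferase that modifies Notch, rose from 0.738 to 1.12 FPKM to 1.92 to 2.63, and Dner, a ligand of neurons, fell from 3.06 to 3.24 FPKM to 0.655 to 1.48. Endothelial markers summed to 3.13 to 5.01 FPKM in DIF and 4.18 to 5.05 in TB, nearly all of it Flt1. Pecam1 was at most 0.01 FPKM in the 6 libraries, and Vwf was at 0.056 to 0.0992 in DIF and 0.158 to 0.347 in TB. Their part in the changes of Notch genes was not tested.

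Of 25 BMP genes 5 rose and 1 fell (median log2 change 0.16), against 4.26% and 4.36% of all tested genes. The 5 became 3 among genes with a mean of at least 2 FPKM, and the 1 fall became 2 with the spread from the 6 libraries alone. Grem1, gremlin 1, a secreted antagonist that binds BMPs, fell from 52.2, 50.3 and 52.5 FPKM to 15.1, 18.4 and 20.5 (log2 change -1.48 ± 0.13, adjusted p 2e-05) and was also under Met at 27.1 FPKM (adjusted p 0.03). Other antagonists rose, Nbl1 from 0.483 to 0.663 FPKM to 2.71 to 3.16 and Bmper from 0.155 to 0.306 FPKM to 1.23 to 1.61. The ligand Bmp2 rose from 1.82 to 2.37 FPKM to 2.94 to 3.85, and was under Met at 14.7 (adjusted p 1.8e-06). The target Id3 rose, from 80.3 to 89.5 FPKM to 137 to 153, whereas Id1 was at 107 to 113 FPKM in TB and 89.3 to 146 in DIF, with overlapping groups.

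Among 29 WNT genes 4 rose and 3 fell, against 4.26% and 4.36% of all tested genes. The 4 became 2 without DIF replicate 2, TB replicate 2 or TB replicate 3. Among genes with a mean of at least 2 FPKM 2 rose and 1 fell. Notum, an enzyme that inactivates WNT ligands, rose from 0.120 to 0.142 FPKM to 1.57 to 2.44. Tcf7, a nuclear partner of beta-catenin, rose from 3.27 to 3.48 FPKM to 5.06 to 5.48. The antagonist Dkk2 fell from 5.97 to 6.23 FPKM to 3.07 to 3.67 and the ligand Wnt7b from 1.39 to 1.68 FPKM to 0.575 to 0.920. Of 28 growth factor genes 7 rose and 3 fell, and the 3 falls became 0 without DIF replicate 2 or TB replicate 3, 1 without TB replicate 1 or with no filter on low values and 5 with voom on the rebuilt reads. Fgf7, a keratinocyte growth factor, rose from 0.402 to 0.534 FPKM to 1.85 to 2.81, with a Met mean of 6.74 above DIF (log2 change Met to DIF -1.17, adjusted p 0.0012). Csf1, the macrophage growth factor, rose from 2.92 to 3.54 FPKM to 5.08 to 7.78. The FGF receptor Fgfr1 rose by 0.58 on the log2 scale, from 4.62 to 5.24 FPKM to 7.26 to 8.86.

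Guidance receptors and ligands rose more often than they fell, where 4.26% of all tested genes rose and 4.36% fell. In 32 genes of semaphorins, plexins, netrins and slits 8 rose and 2 fell, and the rises became 5 without DIF replicate 2 and the falls 1 with any 1 library left out, after quantile normalization or with no filter on low values. Nrp1, a receptor shared by class 3 semaphorins and VEGF, was at 2.36, 2.39 and 2.10 FPKM in TB and 6.09, 6.01 and 5.20 in DIF (log2 change 1.04 ± 0.10, adjusted p 3.6e-05). Sema6d and Draxin, which repel growing axons, rose from means of 3.39 and 1.85 FPKM to 5.73 and 3.42, though Draxin overlaps Mad2l2 on the opposite strand, which rose too. Ntn4, a netrin of basement membranes, fell from 14.5 to 17.7 FPKM to 11.2 to 11.5. Among 11 ephrins and Eph receptors 4 rose and 1 fell, and the fall was not called without DIF replicate 2. Efnb1, an ephrin, rose from 6.92 to 8.79 FPKM to 13.4 to 19.3, and Ephb3, one of its receptors, from 1.93 to 2.08 FPKM to 3.53 to 4.07.

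**Figure D4:**
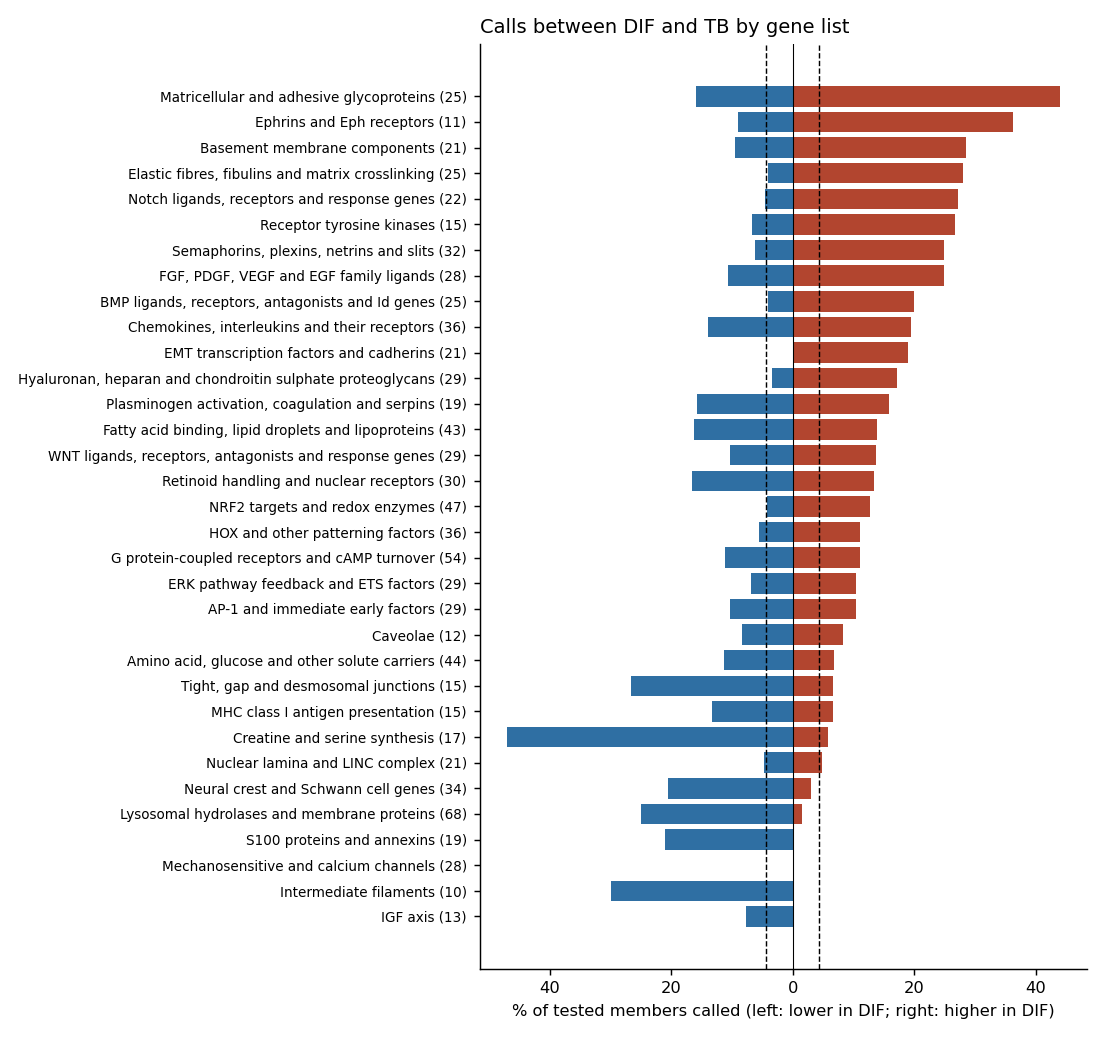
Share of the tested members of 33 gene lists with at least 10 tested genes each (number in brackets) that were called higher (red, right) or lower (blue, left) in DIF than in TB. Dashed lines are the shares over all tested genes, 4.26% higher and 4.36% lower, and matrix, Notch and guidance lists lean right while serine synthesis, lysosome and intermediate filament lists lean left.

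Chemokines and cytokines changed in both directions, where 4.26% of all tested genes rose and 4.36% fell. Of 36 tested genes 7 rose and 5 fell, and the 7 became 4 without DIF replicate 2, TB replicate 2 or TB replicate 3 or with no filter on low values. Ccl2, which draws monocytes, fell from 14.5, 14.1 and 14.7 FPKM to 3.21, 3.16 and 4.35. Ccl8, a related monocyte chemokine, fell from 2.89, 4.18 and 5.61 FPKM to 0.117, 0 and 0.215, and Ccl9 from 1.196 to 1.38 FPKM to 0.325 to 0.429. The membrane-bound chemokine Cx3cl1 went the other way, from 1.23 to 1.56 FPKM to 2.62 to 3.30, as did the neutrophil chemokine Cxcl1, from 0.636 to 0.749 FPKM to 1.34 to 1.62. Tnfrsf11b, osteoprotegerin, a decoy receptor, rose from 1.53 to 2.11 FPKM to 4.11 to 4.95. The signal transducer Stat3 rose from 9.19 to 10.4 FPKM to 14.1 to 17.0 and was above Met at 11 (adjusted p 0.014). Irf9, the DNA-binding part of the interferon-activated complex, rose from 1.93 to 2.06 FPKM to 3.05 to 3.57, and it overlaps Rnf31 on the same strand. Ifitm3, an interferon-induced membrane protein with close copies, rose from 95.9 to 106 FPKM to 171 to 200. Leukocyte markers summed to 0.906 to 1.38 FPKM in DIF and 1.63 to 2.42 in TB, most of it Cd68 and Lyz2. Lyz2, lysozyme, was at 0.0418 to 0.182 in DIF and 0.439 to 0.726 in TB. Csf1r, the receptor of Csf1, went the other way at very low levels, at 0.0104 to 0.0286 in DIF and at most 0.01 in TB. The part of leukocyte markers in the falls of the chemokines was not tested.

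Genes of amino acid synthesis also changed in both directions, where 4.26% of all tested genes rose and 4.36% fell. Ass1, argininosuccinate synthase, which makes the precursor of arginine, rose from 49.87, 49.98 and 44.98 FPKM to 113, 136 and 141 (log2 change 1.41 ± 0.09, adjusted p 1.9e-06) and was above PIF at 62.6 and Met at 79.3 (adjusted p 6.9e-06 and 0.00087). In the list of 17 genes of creatine and serine synthesis to which it belongs, Ass1 was the only rise and 8 genes fell, and the 8 became 5 without DIF replicate 1, DIF replicate 2 or any 1 TB library or with no filter on low values. Phgdh, Psat1 and Psph catalyse the steps from a glycolytic intermediate to serine. They fell from means of 103, 71.1 and 17.7 FPKM to 77.9, 55.2 and 11.5, by 0.40, 0.36 and 0.58 on the log2 scale. Psph overlaps the abundant gene Cct6a on the opposite strand, which was at 126 FPKM in TB and 130 in DIF. Mthfd1l, a mitochondrial folate enzyme, fell from 70.4 to 71.1 FPKM to 49.4 to 55.5. DIF did not pass the test against Met for any of Phgdh, Psat1, Psph and Mthfd1l (adjusted p 0.088, 0.42, 0.98 and 0.8).

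Lipid genes fell and rose in similar number, with 6 of 43 higher and 7 lower, against 4.26% and 4.36% of all tested genes. The fatty acid carrier Fabp5 fell from 46.8, 52.4 and 57.5 FPKM to 32.2, 30.9 and 35.7, whereas Fabp3, the form of heart muscle, rose from 23.4, 27.6 and 32.5 FPKM to 48.2, 37.9 and 44.3. Slc27a1, a fatty acid transporter, fell from 4.669 to 5.001 FPKM to 1.68 to 2.05. Plin2, which coats lipid droplets, fell from 60.2 to 62.5 FPKM to 48.4 to 51.2, and Acsl3, which activates fatty acids for droplets, from 16.1 to 17.7 FPKM to 11.96 to 12.55. Among 44 solute carriers 3 rose and 5 fell, and the 5 became 3 among genes with a mean of at least 2 FPKM. Slc16a1, the lactate transporter MCT1, fell from 14.5 to 15.6 FPKM to 10.08 to 12.01 and was under Met at 16.6 (adjusted p 0.002). Slc14a1, a urea transporter, fell from 8.46 to 8.72 FPKM to 3.95 to 5.98 and was under Met at 10.9 (adjusted p 0.00028). The taurine transporter Slc6a6 rose from 33.3 to 41.4 FPKM to 51.0 to 57.3.

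Intermediate filament and neural crest genes fell more often than they rose, where 4.36% of all tested genes fell and 4.26% rose. Of 10 intermediate filament genes 3 fell and none rose, and of 34 neural crest and Schwann cell genes 7 fell and 1 rose, and the rise was not called without DIF replicate 2, without TB replicate 3 or among genes with a mean of at least 2 FPKM, and became 2 with no filter on low values. Nefl, the light neurofilament, fell from 207, 208 and 212 FPKM to 124, 130 and 146. Nefm, the medium neurofilament, fell from 124, 132 and 131 FPKM to 75.8, 87.5 and 100, and the spans of both genes overlap on opposite strands. The other intermediate filament gene called lower, the keratin Krt80, averaged 1.29 FPKM in TB and 0.703 in DIF (adjusted p 0.018). Tubb3, the neuronal beta-tubulin, fell from 307 to 312 FPKM to 224 to 252. Gfra1, a receptor for the neurotrophic factor GDNF, fell from 23.6 to 25.7 FPKM to 16.8 to 20.3, and the adhesion protein Alcam from 5.82 to 6.67 FPKM to 3.04 to 4.33. Vim, vimentin, the main filament of mesenchymal cells, averaged 1620 FPKM in TB and 1550 in DIF and did not pass the test (adjusted p 0.54). The neural crest markers Sox10 and Ngfr, a neurotrophin receptor, did not pass the test either, with means of 230 and 159 FPKM in TB and 221 and 132 in DIF (adjusted p 0.79 and 0.1).

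Regulators of contractility changed in both directions. Arhgef19, an activator of RhoA, rose from 6.18 to 7.33 FPKM to 10.1 to 11.5 and Cdc42ep4, a CDC42 effector, from 4.50 to 4.73 FPKM to 6.70 to 7.80. Chn2, a RAC inhibitor, fell from 1.93 to 2.21 FPKM to 0.272 to 0.382. Rhoa was at 86.8 FPKM in DIF and 95.6 in TB, Myh9, the main non-muscle myosin, at 94.3 and 84.2, and neither passed the test (adjusted p 0.19 and 0.33). Myl9, the regulatory light chain of myosin, was at 132, 144 and 147 FPKM in TB and 177, 213 and 226 in DIF, with groups that did not overlap and an adjusted p of 0.084, and it was called after quantile normalization, with the spread from the 6 libraries alone and with voom. Its log2 change from Met to DIF was 1.00 (adjusted p 0.0077).

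None of 28 mechanosensitive and calcium channel genes was called by limma with all libraries and 4 group means, while 13 had an unadjusted p under 0.05 and voom on the rebuilt reads called 5, all higher, and 3 were called with the spread from the 6 libraries alone and 1 without DIF replicate 3 or without TB replicate 1. Their log2 changes ran from -0.36 to 0.64, and Piezo1, a stretch-activated channel, averaged 8.71 FPKM in TB and 12.4 in DIF (adjusted p 0.14). Of 21 nuclear lamina and LINC genes 1 rose and 1 fell, together 9.52%, near the 8.62% of all tested genes. Both calls were lost without DIF replicate 1, DIF replicate 2, TB replicate 2 or TB replicate 3. The fall was also lost without TB replicate 1 or with the spread from the 6 libraries alone. Lmna, lamin A/C, averaged 216 FPKM in both groups (adjusted p 0.96). Of 12 caveolae genes 1 rose and 1 fell, and Cav1 and Cav2 are their paired coat proteins. Cav1 rose from 0.280, 0.151 and 0.179 FPKM to 3.08, 3.29 and 4.08 (log2 change 1.89, adjusted p 6.8e-06), whereas Cav2 fell from 56.4 to 61.7 FPKM to 41.6 to 46.5. In that list 2 genes were called higher after quantile normalization or without DIF replicate 1, none was among genes with a mean of at least 2 FPKM, and 2 were called lower with no filter on low values.

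Among 830 tested genes that the table assigns to a transcription factor family 41 were higher and 22 lower, together 7.59%. The bHLH family, factors that bind E-boxes or block such binding, was picked after the values were seen: 7 of its 45 tested genes rose and 6 fell, with 3 falls called without TB replicate 2 or TB replicate 3 and 4 rises among genes with a mean of at least 2 FPKM. Beyond Id3, Hey1, Twist1 and Mitf, Arntl2, a clock factor, rose from 0.416 to 0.582 FPKM to 1.35 to 1.54 and Ahr, a receptor for aromatic compounds, from 3.10 to 3.36 FPKM to 4.22 to 4.82. Bhlhe40, a repressor of the clock, fell from 9.09 to 10.4 FPKM to 6.04 to 7.33 and Mycn, a MYC paralogue, from 1.75 to 2.32 FPKM to 0.667 to 0.983. Outside this family Tead4, a partner of YAP, fell from 2.15 to 3.12 FPKM to 0.600 to 1.65, and Klf6 from 52.5 to 58.1 FPKM to 35.6 to 41.0. Tbx18, a T-box factor of mesenchyme, rose from 3.26 to 3.54 FPKM to 4.55 to 4.75. Of the factors of epithelial to mesenchymal transition, Snai2 was at 12.6 to 14.9 FPKM in TB and 16.4 to 17.3 in DIF (adjusted p 0.038), a call lost without 5 of the 6 libraries in turn. That list of 21 genes had 4 calls, all higher, and 1 or 2 with any 1 library left out and 2 with no filter on low values or among genes with a mean of at least 2 FPKM.

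By chromosome the share of tested genes that were called ran from 3.86% on chromosome 17 to 13.4% on chromosome 6, and whether chromosomes differ in it was not tested. The X chromosome with 8.91% and chromosome 11 with 8.84% lay near the 8.62% of all tested genes and are described for their split by direction, which was picked after the values were seen. On the X chromosome 5 of 404 tested genes were higher and 31 lower, 1.24% and 7.67%, and its median log2 change was -0.054, with all 3 DIF libraries under the 3 TB libraries. The 31 became 15 without DIF replicate 2, 16 without TB replicate 2 and 17 without TB replicate 3, and the 5 became 9 without TB replicate 1 and 3 without DIF replicate 2. Fhl1, Bgn and Efnb1 were the largest changes on the X chromosome, and all 3 rose. Chromosome 11 had 68 higher and 23 lower genes of 1029, 6.61% and 2.24%. With 1 library left out these counts were 31 to 64 and 9 to 22. Its median was 0.022, with DIF replicate 1 at 0.012 under TB replicate 1 at 0.014 and an exact permutation p, two-sided, of 0.2. The exact p was 0.1, the smallest that 3 against 3 libraries allow, for 7 of 20 chromosomes, which were the X chromosome and chromosomes 6, 10, 12, 13, 15 and 17, and the median of chromosome 12, -0.061, was under that of the X chromosome. Among 679 long non-coding RNAs 6 rose and 15 fell, together 3.09% against 8.62% of all tested genes. Gm48479 and Gm48480, which overlap on the same strand of chromosome 12, fell from means of 11.9 and 8.88 FPKM to 3.68 and 2.14, and reads cannot be divided between them with certainty.

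**Figure D5:**
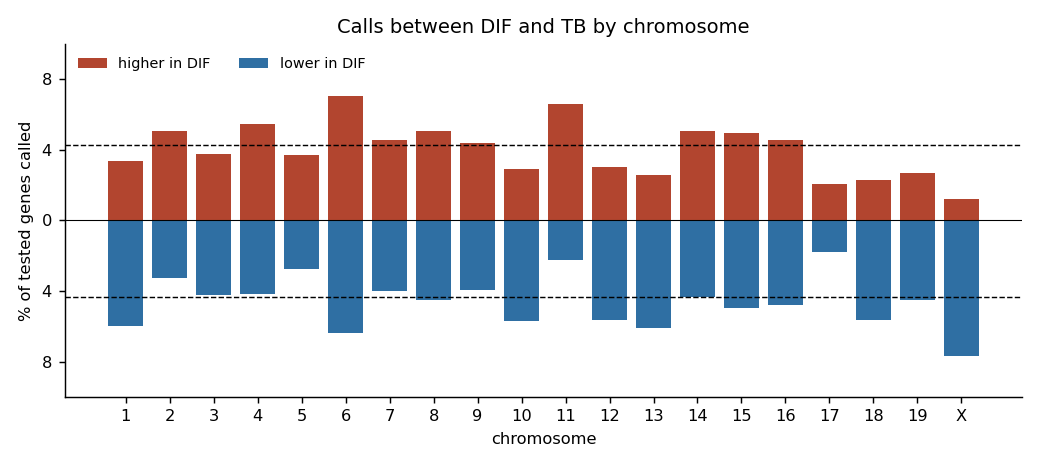
Percent of tested genes on each chromosome that were called higher (red, up) or lower (blue, down) in DIF than in TB, with dashed lines at the shares over all tested genes, 4.26% and 4.36%. The X chromosome has the lowest red bar, 1.24%, and the highest blue bar, 7.67%.

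Against the other groups, 2390 genes were called between DIF and PIF, 18.9% of those tested (9.03% higher and 9.85% lower), and 489 between DIF and Met, 3.86% (1.5% higher and 2.36% lower). All 3 comparisons share the DIF libraries. The count against Met was 234 to 400 with 1 library left out, and 300 with the spread taken from the 6 libraries alone. Genes of the lysosomal list were lower than in PIF for 31 of 68 and higher for 4, and against Met 1 was lower and 1 higher. In the matricellular list 13 of 25 were higher than PIF and 3 lower, and against Met 3 were higher and 4 lower.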

How the data were processed

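RNA sequencing of 12 libraries of mouse melanoma line 4599 was used, of which the 3 DIF and 3 TB libraries carry the comparison. The authors deposited 1 table of FPKM values per gene. Reads were handled with fastp, HISAT2 2.0.5 and featureCounts 1.5.0-p3, per the submitters' processing notes; the sources used here name no genome build, annotation or strand setting. FPKM times gene length gave whole reads for 100% of values (tolerance 0.001), which set the depths. Genes with a mean of at least 0.5 FPKM were tested with limma 3.58.1 (R 4.3.3) on log2(FPKM + 1), with 4 group means, a shared spread (8 residual degrees of freedom) and a trend with level. A fold change on this scale understates the change of low genes. Calls had a Benjamini-Hochberg adjusted p under 0.05. Alternatives were another pseudocount, filter or normalization, the 6 libraries alone, voom on the rebuilt reads, a replicate block, and leaving out each library.

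The gene lists, and the genes and lists described, were chosen with earlier results of these data known. Genes were named from calls with non-overlapping groups by rank of log2 change (30 in each direction) or of FPKM difference (15), from each list by p (5) or level (3), and from fixed names. Outside this rule S100b, Col3a1, Flt1, Pecam1, Vwf, Cd68, Lyz2, Cd3e, Csf1r, Mc1r, Col1a1, Col1a2, Pdgfra, Pdgfrb, Fap, Ndst1, Gla, Ctsd, Atp6v1b2, Atp6v1c1, Thbs1, Ccn3, Spon1, Mfge8, Col15a1, Hyal1, Ntn4, Ccl9, Cxcl1, Stat3, Irf9, Fabp3, Acsl3, Arntl2, Ahr and Mycn, and genes that overlap a named gene, were named after their values were seen. Promoter windows are RefSeq's on GRCm38.p6. A few genes and 1 gene list are not reported here.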

Additional observations from a re-analysis of the deposited data

How the results depend on the processing

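The number of genes called between DIF and TB, 1091, was 589 to 950 with 1 library left out, and 916 to 1293 under the other settings run. No called gene named in the text changed sign under any of them. Between DIF and PIF 2390 genes were called, 1497 with the spread from the 6 libraries alone and 1822 to 2232 with 1 library left out. Between DIF and Met 489 were called, 300 with the spread from the 6 libraries alone and 234 to 400 with 1 library left out. The cause of these moves was not tested, beyond there being fewer libraries. The chromosome medians with 1 library left out were 0.014 to 0.034 for chromosome 11, -0.063 to -0.044 for chromosome 12, -0.044 to -0.021 for chromosome 13 and -0.064 to -0.035 for the X chromosome. Changes of uncalled genes (log2) crossed 0, as Lmna was at 0.07, Sox10 at 0.035 and S100b at 0 after quantile normalization, and with 1 library left out Lmna ran from -0.081 to 0.094 and Sox10 from -0.136 to 0.035, with Flt1 from -0.26 to 0.023. Correlations between same-numbered DIF and TB deviations from the group mean were 0.028, -0.053 and 0.104. They cannot show whether replicate numbers paired the samples, which the sources used here do not say. With a replicate block 1226, 2562 and 537 genes were called against TB, PIF and Met. The block also called 3 lysosomal genes higher in place of 1 and 2 channel genes in place of 0.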
